A study of Homo sapiens with 18 samples.

Results

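The wide H3K27me3 domains are the broadest stretches of this repressive histone mark that every H3K27me3 library of the series carried. They were chosen by merging, at 1 shared base or more, the peaks of the 6 H3K27me3 lists on chromosomes 1 to 22 and X, and by keeping merged regions of 10000 bases or more with a peak in all 6 lists. Of 149670 merged regions, 10887 had a peak in all 6 lists and 696 of these were wide enough. All 696 merged regions of at least 10000 bases had a peak in every list, so in these data the width alone picked the same regions. Width and presence in all lists were therefore used by the choice, and are given below as a description.

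The study used V16D, a line raised from LNCaP prostate cancer cells that has become castration-resistant. It was transduced with a control lentiviral vector (V16D/CTL) or with one that overexpresses H19, an imprinted long non-coding RNA (V16D/H19), in biological triplicate. Chromatin immunoprecipitation for H3K27me3 and for H3K4me3 was sequenced in 3 libraries of each group, and each had an input library of its own replicate. All groups share the same parental line and serum-containing medium, and H19 came from a transgene rather than from the native locus. The comparison asks how the 2 marks are distributed once H19 is overexpressed.

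H3K27me3 is the methyl mark that Polycomb repressive complex 2 places on lysine 27 of histone H3 through its catalytic subunit EZH2 or EZH1. It spreads along the chromatin from CpG-rich nucleation sites, and its broadest blankets are known for covering silent transcription factor genes that direct embryonic patterning and cell fate. H3K4me3 marks the starts of genes that are active or kept ready for activity, and promoters that carry both marks are called bivalent.

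As examples of gene starts inside wide domains, the 250 bases before the start of 6 genes are given. They were taken because each start lies in a wide domain that held an H3K4me3 peak in all 6 H3K4me3 lists. These are RefSeq sequences (GRCh38.p14, the build the peak files use), written 5′ to 3′ on the strand of the gene, with every CG pair in capitals. FOXD1 and POU3F2 are developmental transcription factor genes and HOXD8 belongs to the HOXD cluster. GATA3 encodes a zinc finger factor of epithelial and lymphoid lineages, ST3GAL6 a sialyltransferase and TCHH trichohyalin, a structural protein of the hair follicle.
FOXD1, chr5:73448778-73449027, minus strand: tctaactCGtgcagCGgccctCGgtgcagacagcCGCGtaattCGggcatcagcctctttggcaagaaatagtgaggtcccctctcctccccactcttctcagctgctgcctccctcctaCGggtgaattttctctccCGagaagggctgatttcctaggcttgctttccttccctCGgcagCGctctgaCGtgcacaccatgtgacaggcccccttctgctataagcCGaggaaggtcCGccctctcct
POU3F2, chr6:98834324-98834573, plus strand: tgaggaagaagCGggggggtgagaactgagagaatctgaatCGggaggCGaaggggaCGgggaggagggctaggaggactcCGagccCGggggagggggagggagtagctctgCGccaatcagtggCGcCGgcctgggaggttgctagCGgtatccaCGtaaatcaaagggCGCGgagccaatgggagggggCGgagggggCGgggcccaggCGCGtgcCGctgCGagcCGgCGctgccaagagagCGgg
HOXD8, chr2:176129455-176129704, plus strand: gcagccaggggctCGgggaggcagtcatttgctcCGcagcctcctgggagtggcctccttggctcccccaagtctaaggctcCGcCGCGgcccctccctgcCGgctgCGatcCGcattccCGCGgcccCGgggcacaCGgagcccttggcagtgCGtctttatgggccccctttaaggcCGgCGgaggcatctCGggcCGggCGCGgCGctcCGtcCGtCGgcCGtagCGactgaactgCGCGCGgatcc
GATA3, chr10:8045083-8045332, plus strand: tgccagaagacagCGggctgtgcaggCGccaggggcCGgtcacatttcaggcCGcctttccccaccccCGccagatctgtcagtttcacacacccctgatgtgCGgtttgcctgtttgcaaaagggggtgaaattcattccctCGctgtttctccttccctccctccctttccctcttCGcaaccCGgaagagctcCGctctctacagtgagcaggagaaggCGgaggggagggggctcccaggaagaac
ST3GAL6, chr3:98732012-98732261, plus strand: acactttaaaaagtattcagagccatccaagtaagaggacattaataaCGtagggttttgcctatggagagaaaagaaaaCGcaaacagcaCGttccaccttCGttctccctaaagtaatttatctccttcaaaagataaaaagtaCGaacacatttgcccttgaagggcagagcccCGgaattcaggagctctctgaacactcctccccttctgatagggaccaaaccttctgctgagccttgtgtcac
TCHH, chr1:152115445-152115694, minus strand: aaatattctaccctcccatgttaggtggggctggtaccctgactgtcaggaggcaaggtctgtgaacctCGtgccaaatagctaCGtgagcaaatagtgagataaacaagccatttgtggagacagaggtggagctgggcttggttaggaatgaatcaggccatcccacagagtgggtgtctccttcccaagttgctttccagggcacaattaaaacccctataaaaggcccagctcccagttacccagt

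These stretches held 13 CG pairs before FOXD1, 22 before POU3F2 and 28 before HOXD8. GATA3 had 11, ST3GAL6 had 6 and TCHH had 2. Over the 15812 protein-coding genes with such a sequence the median was 17 CG pairs, with quartiles of 6 and 26, so the domains hold promoters from both ends of that range. The GC box GGGCGG, searched on both strands, was present before FOXD1 and POU3F2 and in 55.8% of all 15812 stretches, and TATAAA, on both strands, was present before TCHH and in 9.36%. A sequence was found for 122 of the 190 genes that start in a wide domain (64.2%), so no comparison of base composition over the whole set was made. An H3K4me3 peak in all 6 lists lay within 1 kb of the starts of FOXD1, POU3F2, HOXD8 and ST3GAL6. For GATA3 and TCHH it lay farther from the start used here, within the domain. A start here is the 5′ end of the whole RefSeq gene. Other starts of GATA3 and TCHH were not looked at, so these values do not show whether another promoter of either gene carried H3K4me3.

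The 696 domains spanned 10.0 Mb in all. Their merged width had a median of 12956 bases, with quartiles of 11174 and 15931.5 bases, and ranged from 10013 to 43882 bases. Only 69 reached 20000 bases. The 3 regions just inside the limit were 10013, 10019 and 10020 bases wide, the last 2 at the starts of B3GNT6 and TCF21, and the 3 just outside were 9993, 9989 and 9988 bases wide. The narrowest region inside had 3.89 to 6.06 kb of peaks in V16D/CTL and 2.89 to 4.90 kb in V16D/H19. The widest one outside, in GFRA1, had 4.44 to 7.02 kb and 4.22 to 4.98 kb.

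The widest domain, chr3:98717868-98761749, held the start of ST3GAL6. Its summed peak length was 35.7, 39.6 and 33.8 kb in the 3 V16D/CTL libraries and 35.7, 32.3 and 34.4 kb in the 3 V16D/H19 libraries. The groups overlapped, and the 2 marks shared this domain, with 1092 to 1287 bases of H3K4me3 peaks in V16D/CTL against 802 to 1336 bases in V16D/H19. A domain of almost the same width, chr20:48812916-48856760, lay inside PREX1, a gene for a Rac exchange factor, and its neighbour chr20:48780747-48812181 was also among the 10 widest. The first had 32.4 to 37.5 kb in V16D/CTL and 28.0 to 31.8 kb in V16D/H19, without overlap, and the second 25.5 to 27.6 kb and 21.5 to 26.8 kb, with overlap.

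Developmental regulators made up part of the widest domains. FOXA2, a forkhead factor of endoderm, lay in a domain of 37148 bases with 27.1, 34.6 and 32.5 kb of peaks in V16D/CTL against 26.8, 29.2 and 26.0 kb in V16D/H19. OTX2, a homeobox factor of the forebrain and eye, had 25.0, 27.8 and 26.1 kb in V16D/CTL and 23.1, 24.4 and 24.8 kb in V16D/H19, and here the groups did not overlap. FOXF1, a forkhead factor of mesoderm, had 27.7, 29.1 and 28.7 kb against 26.5, 23.1 and 28.9 kb, and its groups overlapped. The rest of the 10 widest lay inside RBFOX3, OLFM1 and EXT1 or, at chr10:130941974-130973842, in no protein-coding gene. None of the 10 passed the test of peak length described below (adjusted p from 0.162 to 0.777, limma with Benjamini-Hochberg adjustment).

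**Figure D1:**
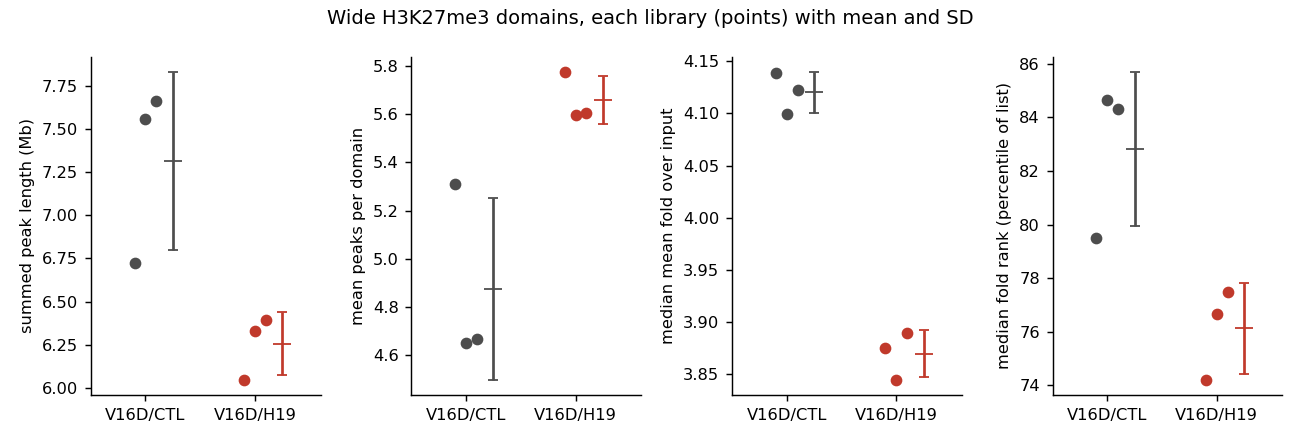
Points show each library, and the bars to their right the mean and SD of the 3 libraries of a group, for the summed length of H3K27me3 peaks in the 696 wide domains (Mb), the mean number of peaks per domain, the median of the domains' mean fold over input, and the median of their fold rank (percentile within the list). In each panel the V16D/H19 libraries lie apart from the V16D/CTL libraries, and the vertical axes do not start at 0.

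In V16D/H19 cells the same domains were covered by shorter and more numerous peaks. The summed peak length over all 696 domains was 6.72, 7.56 and 7.66 Mb in the V16D/CTL libraries and 6.05, 6.33 and 6.39 Mb in the V16D/H19 libraries, or 73.0% ± 5.16 and 62.5% ± 1.83 of the domains' width (SD, n = 3 in each group). The groups did not overlap. The number of peaks in the domains was 3695, 3237 and 3248 in V16D/CTL against 4019, 3895 and 3900 in V16D/H19, so that a domain was split into 4.88 ± 0.375 and 5.66 ± 0.101 peaks on average (SD, n = 3). The mean peak measured 2171 ± 305.2 bases in V16D/CTL against 1589 ± 73.7 bases in V16D/H19. A domain was covered by a single peak in 9, 16 and 24 cases in V16D/CTL and in 1, 4 and 2 cases in V16D/H19.

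The lower coverage lay mostly between peaks and less at the edges. Gaps between the first and the last peak of a domain summed to 1.93 ± 0.358 Mb in V16D/CTL against 2.70 ± 0.115 Mb in V16D/H19, and the stretches beyond the outermost peaks to 0.772 ± 0.159 Mb and 1.06 ± 0.0675 Mb (SD, n = 3). Bases covered in all 6 lists amounted to 2.53 Mb, or 25.3% of the width. Bases covered in all 3 V16D/CTL lists and in no V16D/H19 list summed to 0.22 Mb, and bases with the opposite pattern to 0.0402 Mb.

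The length of the whole list moved with this result, in part. Over chromosomes 1 to 22 and X the lists held 54951 to 72171 peaks in V16D/CTL against 56111 to 62763 in V16D/H19, which summed to 44.9, 58.7 and 62.0 Mb and to 42.1, 47.4 and 48.3 Mb. The first V16D/CTL list was shorter than 2 of the V16D/H19 lists. Its peaks covered more of the wide domains than those of any V16D/H19 library. More of the domains' merged width came from V16D/CTL peaks, which favours coverage in V16D/CTL. The domains held 13.4% ± 1.38 of the length of a V16D/CTL list and 13.7% ± 0.61 of a V16D/H19 list, with overlap. Read depth was not used here, and its part in these differences was not tested.

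Domain by domain, 241 of the 696 (34.6%) were shorter in every V16D/H19 library than in every V16D/CTL library, and 12 (1.72%) were longer. Over all 10887 regions with a peak in all 6 lists these shares were 17.2% and 3.15%. The width limit favours shorter V16D/H19 peaks among its members, since the merged width takes the longest peaks of either group and more of it came from V16D/CTL. In 373 domains the merged V16D/CTL peaks alone reached 10000 bases, and of these 46.6% were shorter without overlap and 0.536% longer. In 156 the merged V16D/H19 peaks alone did, and of these 23.7% were shorter and 3.21% longer, with a median log2 difference of -0.13 against -0.23 for the 373. The counts over the 696 are therefore a description. The difference in size, however, was no larger in the wide domains than elsewhere. On the log2 scale the median difference, V16D/H19 minus V16D/CTL, was -0.21 over the 696 domains, -0.24 over the 10191 narrower regions and -0.23 over all regions. When each library's log2 lengths were centred on their own median, which takes out this general shift, 65 wide domains (9.34%) were shorter and 93 (13.4%) longer without overlap, against 7.51% and 8.52% of all regions, and the median over the domains was 0.04. The lower coverage of the wide domains thus lay close to the general shift of these lists.

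**Figure D2:**
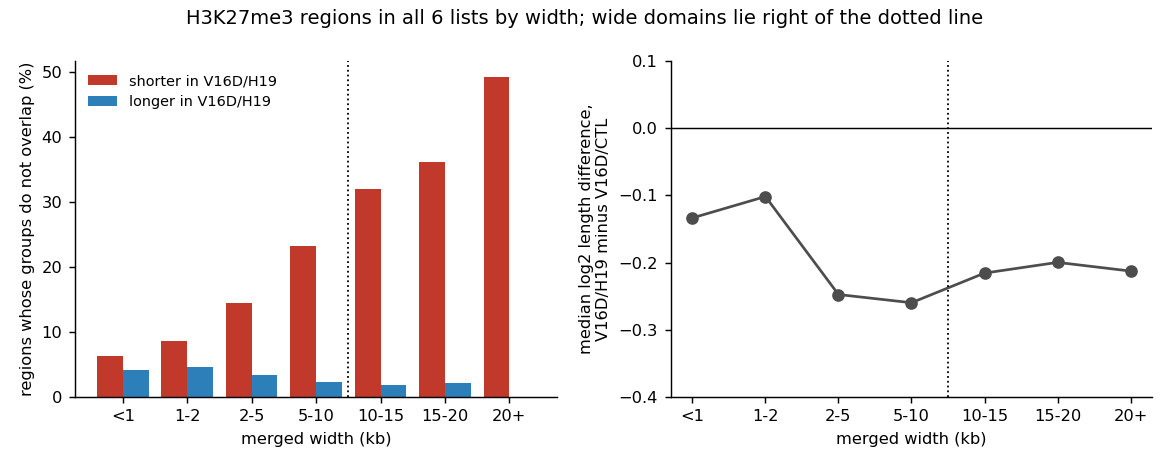
For H3K27me3 regions with a peak in all 6 lists, grouped by merged width (kb), the left panel gives the share whose V16D/H19 and V16D/CTL libraries do not overlap in peak length, and the right panel the median log2 length difference. The share that was shorter in V16D/H19 goes from 6.25% below 1 kb to 49.3% at 20 kb or more, while the median difference stays between -0.26 and -0.20 from 2 kb upwards.

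The share of regions that were shorter in V16D/H19 without overlap went up with merged width, a measure that the longer V16D/CTL peaks take part in setting. It was 8.55% at 1 to 2 kb, 14.4% at 2 to 5 kb, 23.2% at 5 to 10 kb, 32.1% at 10 to 15 kb, 36.2% at 15 to 20 kb and 49.3% at 20 kb or more, where 34 of 69 domains were shorter in V16D/H19 and none was longer. The median log2 difference over the same classes was -0.10, -0.25, -0.26, -0.22, -0.20 and -0.21, and it was -0.13 below 1 kb. It was thus more negative from 2 kb upwards than below 2 kb, with no steady growth beyond. By peak number, 62 wide domains (8.91%) were higher in every V16D/H19 library than in every V16D/CTL library and 9 (1.29%) were lower. Over all regions these shares were 2.15% and 1.45%. The narrower regions held only 1.86 ± 0.0102 peaks in V16D/CTL and 1.89 ± 0.00829 in V16D/H19 on average (SD, n = 3). With so few peaks the groups can seldom lie apart, so these shares do not compare narrow with wide regions.

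The fold over input of the peaks was lower as well. Averaged over the peaks of a domain with their lengths as weights, it had a median of 4.14, 4.10 and 4.12 in V16D/CTL against 3.88, 3.85 and 3.89 in V16D/H19. In the narrower regions the medians were 3.68 ± 0.0538 and 3.57 ± 0.0292 (SD, n = 3). Each peak was also ranked within its own list, from 0 to 100 with the strongest at 100, by its fold and by its -log10 q-value. The median fold rank of the domains was 79.5, 84.6 and 84.3 in V16D/CTL against 74.2, 76.7 and 77.5 in V16D/H19, and the median q rank 81.1, 86.1 and 85.9 against 77.5, 79.0 and 80.3. Neither overlapped between the groups. In the narrower regions both overlapped, the fold rank only narrowly, at 64.3, 69.5 and 70.4 in V16D/CTL against 61.7, 63.1 and 64.5 in V16D/H19. Their q ranks were 65.7, 71.0 and 72.2 against 63.5, 65.3 and 66.7. The group means differed by -6.69 in the domains and -4.95 in the narrower regions for fold rank, and by -5.45 and -4.48 for q rank. A longer list adds weak peaks and so raises the rank of strong ones. With every list limited to the 54951 peaks of the shortest, the median fold rank over the 660 domains then found was 80.1, 82.5 and 82.2 in V16D/CTL against 74.2, 75.8 and 76.7 in V16D/H19, and the median q rank 81.4, 83.9 and 83.6 against 77.4, 77.9 and 79.0, again without overlap. These 660 were chosen by the same width rule, so the equal lists do not take out the choice of domains.

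By fold rank, 163 domains (23.4%) were lower in every V16D/H19 library and 8 (1.15%) higher, beside 10.6% and 3.35% of all regions. By q rank, 160 (23.0%) were lower and 11 (1.58%) higher, beside 11.1% and 3.41%. More of the merged width came from V16D/CTL peaks, so the width limit may favour V16D/CTL in rank too, which was not tested. These shares are therefore a description as well. In limma, on normal scores of the ranks, no domain and no other region passed an adjusted p of 0.05 for either rank (0% of 10887). At an unadjusted p under 0.05, 30 domains (4.31%) were lower and 0 higher by fold rank, beside 6% and 1.64% of all regions. This number was 11 without the second and 9 without the third V16D/CTL library, 17 without the first and 19 without the second V16D/H19 library, and 114 on the log2 mean fold. There were 31 (4.45%) lower and 0 higher by q rank, beside 6.46% and 1.79%, and the 31 became 12 without the second and 9 without the third V16D/CTL library, and 13, 22 and 17 without the V16D/H19 libraries 1, 2 and 3. The median difference in normal score was -0.24 over the domains and -0.17 over all regions by fold rank (-0.21 and -0.14 with equal-length lists), and -0.23 and -0.15 by q rank.

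**Figure D3:**
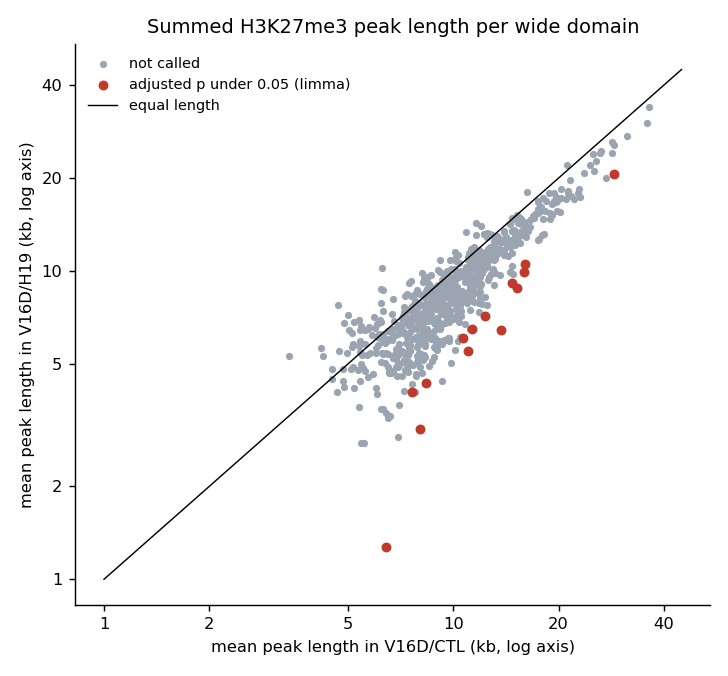
Each point is one of the 696 wide domains, with its mean summed peak length over the 3 V16D/CTL libraries on the horizontal and over the 3 V16D/H19 libraries on the vertical axis (kb, both logarithmic). Most points lie under the line of equal length, and the 14 domains with an adjusted p under 0.05 (limma) all lie under it.

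Peak length was tested in each region with limma over all 10887 regions. It fell in 14 wide domains (2.01%) and rose in 0, beside 0.184% and 0.00919% of all regions, and at an unadjusted p under 0.05 it was lower in 248 (35.6%) and higher in 8 (1.15%), beside 13.1% and 1.65% of all regions. As with the counts without overlap, the width limit favours shorter V16D/H19 peaks among the domains. These shares are therefore a description as well. In 582 of the 696 domains (83.6%) the difference was negative, as it was in 68.4% of all regions. Leaving out any 1 of the V16D/CTL libraries left 0 of these calls, leaving out the first V16D/H19 library left 1, the second 8 and the other 6. After centring, 2 of the 14 domains were still called. All 14 kept a negative difference in each of these fits.

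**Figure D4:**
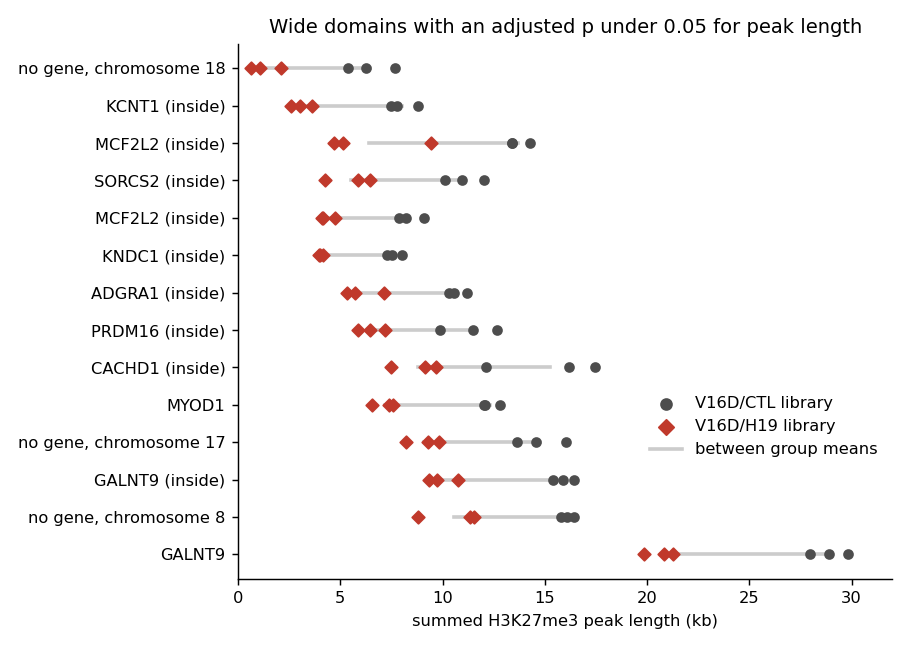
Summed H3K27me3 peak length (kb) of the 14 wide domains with an adjusted p under 0.05 (limma), with a circle for each V16D/CTL library, a diamond for each V16D/H19 library and a bar between the group means. Names are the protein-coding gene that starts in the domain or, with "inside", that the domain lies in, and the V16D/H19 libraries lie below the V16D/CTL libraries in every row.

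The largest drop lay at chr18:78925270-78935472, in no protein-coding gene, where peaks measured 5.39, 6.26 and 7.66 kb in V16D/CTL and 2.09, 0.648 and 1.08 kb in V16D/H19. The log2 difference was -2.49 ± 0.385 (SE, adjusted p = 0.0206, limma). A domain inside KCNT1, which encodes a sodium-activated potassium channel, had 7.47, 8.81 and 7.75 kb in V16D/CTL and 3.02, 3.61 and 2.60 kb in V16D/H19 (log2 difference -1.39 ± 0.202, adjusted p = 0.0195, limma). In both, every V16D/H19 library lay far below every V16D/CTL library.

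Several of the called domains sat near each other. MCF2L2, a guanine nucleotide exchange factor gene, held 2 of them: chr3:183348192-183367083 with 13.4, 13.4 and 14.3 kb in V16D/CTL and 5.15, 9.42 and 4.67 kb in V16D/H19, and chr3:183203462-183214437 with 8.19, 9.06 and 7.88 kb against 4.74, 4.15 and 4.12 kb. Near the end of the long arm of chromosome 10, the domain inside ADGRA1, an adhesion G protein-coupled receptor gene, went from 10.7 ± 0.445 kb to 6.05 ± 0.948 kb, and that inside KNDC1, a neuronal guanine nucleotide exchange factor gene, from 7.60 ± 0.378 kb to 4.03 ± 0.0913 kb (SD, n = 3). The log2 differences of these 4 lay between -1.17 and -0.83, with adjusted p from 0.0274 to 0.0439 (limma).

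SORCS2, a sorting receptor gene of the nervous system, had 10.1, 10.9 and 12.0 kb in the V16D/CTL and 4.23, 6.43 and 5.88 kb in the V16D/H19 libraries. In PRDM16, whose product is a transcriptional regulator of brown fat and neural stem cells, the called domain had 9.88, 11.5 and 12.7 kb and 7.18, 5.87 and 6.44 kb. Both passed the test (adjusted p = 0.0251 and 0.0373, limma), and in both all V16D/H19 libraries were lower.

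Only 2 of the 14 held the start of a protein-coding gene. MYOD1, the master regulator of skeletal muscle, had 12.8, 12.0 and 12.1 kb in V16D/CTL and 6.53, 7.39 and 7.57 kb in V16D/H19 (log2 difference -0.78 ± 0.129, adjusted p = 0.025, limma). Its fold rank overlapped between the groups, at 82.3, 91.2 and 81.9 in V16D/CTL against 93.0, 69.0 and 86.9 in V16D/H19. GALNT9, a gene for an enzyme of O-linked glycosylation, was chosen for description after its values were seen. The domain at its start had 28.0, 28.9 and 29.8 kb against 20.8, 21.3 and 19.9 kb (adjusted p = 0.0206, limma), and went from 6, 5 and 3 peaks in V16D/CTL to 10, 8 and 9 in V16D/H19. A second domain, farther into GALNT9, was called as well (15.9 ± 0.51 kb to 9.94 ± 0.716 kb, SD, n = 3), as were domains inside CACHD1 and at 2 sites outside protein-coding genes on chromosomes 17 and 8, also seen only after the test.

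**Figure D5:**
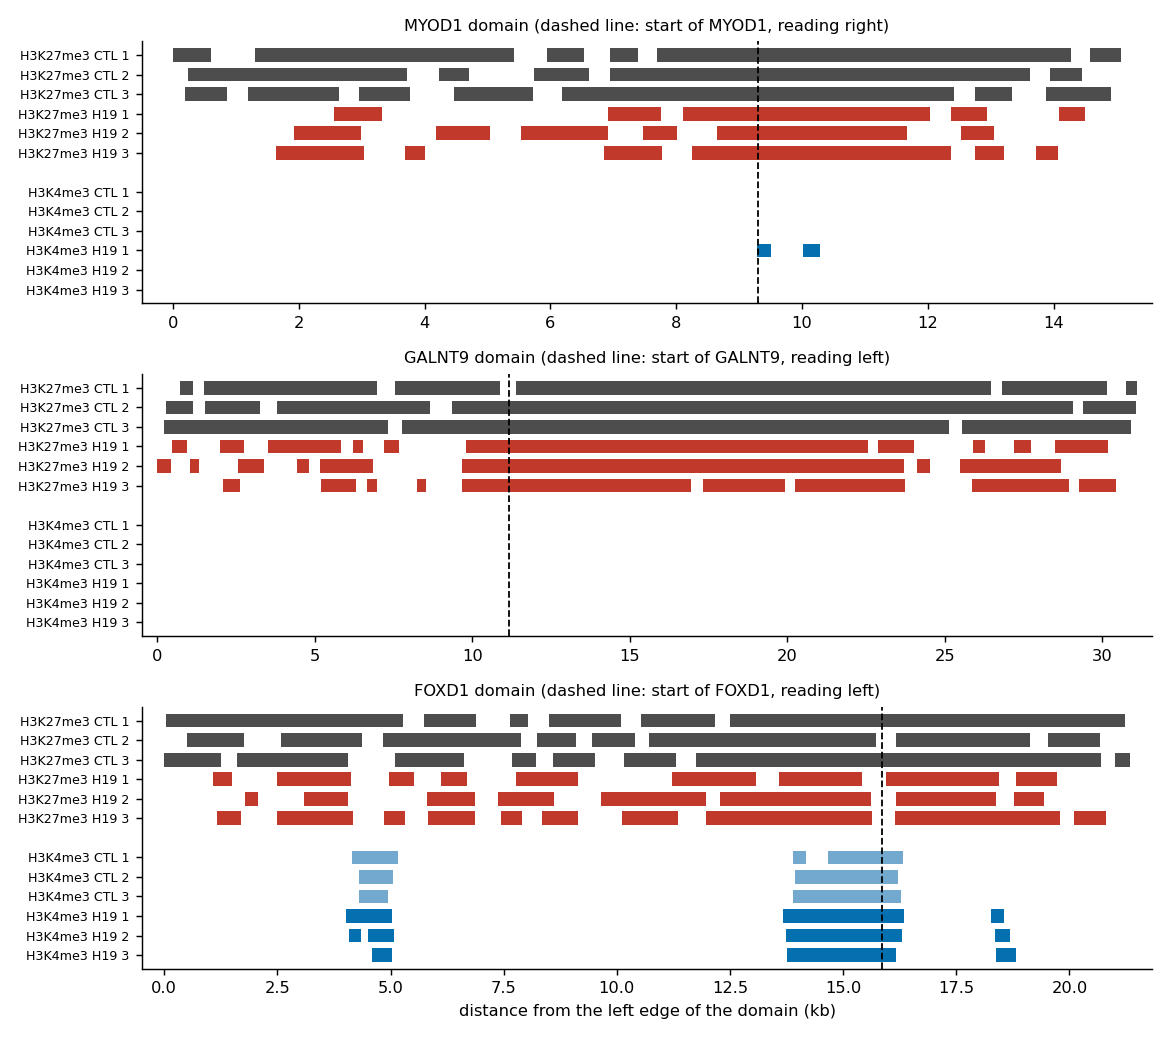
Peaks of the 6 H3K27me3 lists (grey V16D/CTL, red V16D/H19) and the 6 H3K4me3 lists (light blue V16D/CTL, dark blue V16D/H19) across the wide domains of MYOD1, GALNT9 and FOXD1, as distance from the left edge of the domain (kb), with the start of the gene as a dashed line. Around MYOD1 a peak covers the start of the gene in all 6 H3K27me3 lists while more of the flanks is uncovered in V16D/H19, GALNT9 is broken into more peaks in V16D/H19, and in FOXD1 an additional short H3K4me3 peak is found in the 3 V16D/H19 lists.

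No wide domain was called longer in V16D/H19. Among the 12 whose V16D/H19 libraries all lay above, the largest difference was at MS4A2, which encodes the beta chain of the IgE receptor of mast cells, with 4.39, 7.19 and 7.18 kb in V16D/CTL and 11.7, 9.27 and 9.74 kb in V16D/H19 (log2 difference 0.74 ± 0.188, adjusted p = 0.0829, limma). Next came domains inside EBF1, with 4.48 to 5.02 kb and 6.70 to 8.46 kb, inside CADM1, with 3.77 to 5.52 kb and 6.48 to 6.98 kb, inside ASTN1, with 5.69 to 7.15 kb and 7.43 to 9.52 kb, and inside SDK1, with 5.38 to 6.74 kb and 6.97 to 8.42 kb. CADM1, ASTN1 and SDK1 encode adhesion or guidance proteins of neurons, and EBF1 a factor of B cell and neuronal development. None of the 5 passed the test (adjusted p from 0.0727 to 0.331, limma), and of the 12 only the one at MS4A2 held a gene start.

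By position, 182 domains (26.1%) held the start of a protein-coding gene, 279 (40.1%) touched a gene body without its start and 235 (33.8%) touched no protein-coding gene. In the narrower regions these shares were 10.0%, 42.6% and 47.4%. In all, 190 of the 19630 genes with a known strand (0.968%) started in a wide domain, and 8 domains held 2 starts. The domains with a start of a developmental gene from the lists below were wider (median 15928.5 bases over 48 domains) than the other 134 with a start (12620 bases). Of the 48, 28 (58.3%) were shorter in V16D/H19 without overlap and 0 longer, against 43 (32.1%) and 1 of the 134, yet the median log2 differences were -0.21 and -0.22.

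Of the 5 domains with the highest mean fold rank over the 6 lists, 4 held the start of a transcription factor gene. The first was NEUROD2, a bHLH factor of neurons, at 99.2, followed by LHX5, a LIM homeobox factor of the brain, at 98.9. Next were a domain inside LMF1 at 96.7, GATA3 at 96.5 and SCRT1, a zinc finger repressor of neurons, at 96.4. In peak length NEUROD2 had 12.8, 12.7 and 12.8 kb in V16D/CTL and 12.6, 13.5 and 13.5 kb in V16D/H19, LHX5 17.0 to 17.7 kb and 16.4 to 17.1 kb, and GATA3 20.4 to 21.8 kb and 20.2 to 23.3 kb. All 5 overlapped between the groups, with log2 differences from -0.10 to 0.05 and adjusted p of 0.740 to 0.860 (limma).

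Of 348 developmental regulators in the gene lists, 51 (14.7%) started in a wide domain. LIM homeobox genes had 5 of 12 there (LHX1, LHX3, LHX5, LHX8 and LMX1A), DLX genes 2 of 6, GATA genes 2 of 6, bHLH genes of neural and mesodermal fate 8 of 33, PAX genes 2 of 9 (PAX3 and PAX6) and other developmental homeobox genes 12 of 58. HOX cluster genes had 6 of 39, all in HOXB or HOXD, POU genes 2 of 14, forkhead genes 5 of 44 and SOX genes 2 of 19. WNT ligand genes had 0 of 19, and ZIC and GLI genes 0 of 11. The same held for 22 Polycomb genes, 51 cytosolic ribosomal protein genes and 8 luminal prostate genes, all with 0.

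The bHLH genes, which drive neural and muscle fates, had a median log2 difference of -0.34 over their 8 domains, beside -0.23 over all regions. TWIST1, a regulator of mesoderm, had 9.41, 13.1 and 11.0 kb in V16D/CTL and 6.11, 5.57 and 7.80 kb in V16D/H19 (log2 difference -0.79, adjusted p = 0.0593, limma). TCF21, a factor of mesenchyme, had 7.67, 8.94 and 9.95 kb and 4.73, 6.05 and 7.47 kb (adjusted p = 0.177, limma). Of these 8 domains 6 were shorter in V16D/H19 without overlap, beside 34.6% of the wide domains and 17.2% of all regions, and 1 (MYOD1) was called, beside 0.184% of all regions.

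The HOX genes, which set position along the body axis, started in 4 wide domains. HOXD10 and HOXD11 shared a domain of 14.5, 16.2 and 14.4 kb in V16D/CTL and 12.7, 11.9 and 12.6 kb in V16D/H19. HOXB8 and HOXB9 shared another of 14.7, 16.4 and 17.8 kb and 14.0, 13.6 and 13.0 kb. The HOXD8 domain, with 7.66, 9.62 and 9.34 kb against 6.30, 9.08 and 7.79 kb, overlapped. The other 3 were shorter in V16D/H19 without overlap, beside 34.6% of the wide domains and 17.2% of all regions, and 0 of the 4 were called (adjusted p from 0.232 to 0.578, limma).

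Among forkhead genes, FOXD1, a factor of kidney stroma and retina, stood nearest to the threshold. Its domain had 18.7, 17.0 and 17.1 kb in V16D/CTL and 11.7, 12.1 and 14.2 kb in V16D/H19 (log2 difference -0.48 ± 0.107, adjusted p = 0.0646, limma). PAX6, a homeobox factor of eye and pancreas, had a log2 difference of -0.16 (adjusted p = 0.362, limma).

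Genes of neuroendocrine identity were frequent in the wide domains, with 8 of 17 listed genes. This list was drawn in part from genes the study picked on these samples (FGF9, HOXD10, RUNX1T1 and POU3F2 among the 8) and is no independent evidence. Of the 8 domains 5 were shorter in V16D/H19 without overlap and 0 longer, beside 17.2% and 3.15% of all regions, and 0 were called, with a median log2 difference of -0.26 beside -0.23 over all regions. Chromogranin B (CHGB), a secretory granule protein, had 9.57, 8.51 and 9.46 kb in V16D/CTL and 5.58, 7.87 and 5.99 kb in V16D/H19 (adjusted p = 0.162, limma).

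INSM1, a zinc finger regulator of neuroendocrine cells, had 11.8, 12.1 and 12.3 kb in V16D/CTL and 11.0, 10.0 and 9.71 kb in V16D/H19. FGF9, a growth factor gene, had 24.7, 26.8 and 25.1 kb and 23.5, 23.2 and 21.3 kb. Both were apart between the groups and did not pass the test (adjusted p of 0.347 and 0.315, limma), whereas NCAM1, a neural adhesion gene, at 6.95 to 10.0 kb and 6.64 to 10.2 kb, overlapped.

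Luminal genes lay outside. KRT8, KRT18, KLK2, KLK3, TMPRSS2 and EPCAM had an H3K4me3 peak within 1 kb of the start in all 6 lists and an H3K27me3 peak in none. Of the 6 neuroendocrine markers 3 lay in wide domains, CHGB and INSM1 among them. H3K4me3 was found in all 6 lists at 3 of the 6, SYP and ENO2 among them, and ENO2 also had H3K27me3 in 3 lists. H3K4me3 was found in all lists at 1 of 5 fibroblast markers (COL1A1), at 1 of 2 endothelial markers (KDR) and at 0 of 3 leukocyte markers. COL1A1 also had H3K27me3 in all 6 lists, and KDR had it in 4. No peak of either mark lay within 10 kb of the H19 gene in any list, and the nearest wide domain was 136 kb away, so the targeted gene gave no check of the labels.

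H3K4me3 was present in a minority of the domains. More domains held it in every V16D/H19 library than in any V16D/CTL library, and so did more of the narrower regions. The share of domains with it averaged 17.1% (SD 0.166) for V16D/CTL and 19.7% (SD 1.93) for V16D/H19 (n = 3). For the narrower regions these averages were 9.69% (SD 0.123) and 11.2% (SD 0.726), so the rise was not particular to the wide domains. Peaks were found in 120, 118 and 120 domains in the V16D/CTL libraries and in 143, 147 and 122 in the V16D/H19 libraries, and covered 103, 95.2 and 99.1 kb and 134, 144 and 103 kb. The V16D/H19 library of replicate 3 thus lay near the V16D/CTL libraries, with a list of 19968 peaks against 20015 to 21084 in V16D/CTL against 21859 and 21804 in the other V16D/H19 libraries. A peak in all 6 lists was found in 92 domains (13.2%), and in none of the 6 in 527 (75.7%), beside 8.18% and 87.2% of the narrower regions. It was more frequent around gene starts, in 72 of 182 domains (39.6%), than in gene bodies (15 of 279) or outside genes (5 of 235).

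Of the 92 domains with H3K4me3 in all lists, 40 (43.5%) were shorter in V16D/H19 by H3K27me3 peak length and 0 longer without overlap, with a median log2 difference of -0.24, beside 34.6%, 1.72% and -0.21 over the 696. In the 527 without H3K4me3 these numbers were 167 (31.7%), 11 and -0.21. Over all regions 17.2% were shorter and 3.15% longer. None of the 92 and 12 of the 527 were called in limma, beside 0.184% of all regions called shorter. The 2 sets also differed in width, with medians of 13838 bases in the 92 and 12767 bases in the 527.

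The 101 merged H3K4me3 regions that touched a wide domain and had a peak in all 6 H3K4me3 lists were compared by their fold rank. It was higher in every V16D/H19 library for 22 (21.8%) and lower for 1 (0.990%), beside 7.58% and 4.02% of all 15760 such regions. The median difference in normal score was 0.12, against 0.04 in the 15659 regions elsewhere, and 20 of the 101 were negative. No H3K4me3 region passed an adjusted p of 0.05 (0% in each direction, limma). At an unadjusted p under 0.05, 19 of the 101 were higher and 1 lower, beside 4.36% and 1.87% of all regions. The 19 became 10 without the first and 8 without the second V16D/H19 library, and the median difference became 0.23 without the third. Those first 2 V16D/H19 libraries also had the longest H3K4me3 lists (21859 and 21804 peaks), and a longer list of weak peaks raises the ranks of others. Lists of equal length were not run for H3K4me3, so the part of list length in these ranks was not tested.

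The lowest p among them belonged to the H3K4me3 region at NPAS3, a bHLH factor gene of neurons, with fold ranks of 18.2, 14.2 and 24.7 in V16D/CTL against 39.5, 35.3 and 35.8 in V16D/H19 (unadjusted p = 0.00403 and adjusted p = 0.741, limma). HOXD8 had 12.9, 14.7 and 9.08 against 27.3, 25.7 and 27.7, and BHLHE22, a bHLH factor of neurons, 20.6, 7.64 and 0.68 against 28.6, 21.1 and 25.2. The single region that was lower lay at OTP, a homeobox factor of the hypothalamus, at 63.0, 42.0 and 46.9 against 37.8, 37.4 and 32.6. NPAS3, BHLHE22 and OTP were named after their values were seen.

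H3K4me3 regions found in all 3 V16D/H19 lists and in no V16D/CTL list numbered 7 of the 235 that touched a wide domain (2.98%), beside 0.728% of all 25276, and lay in 5 domains. Of these, 2 lay in the domain of the PRDM16 start, 2 in a domain inside KCNK2 and 1 each in the domains of FOXD1 and CACNA1A and in one on chromosome 8 with no protein-coding gene. The opposite pattern was seen for 2 of the 235 (0.851%), beside 0.336% of all, and one of these lay in the domain of GATA3. Such regions were short and weak, with fold ranks from 2.56 to 30.5 in the 7 cases.

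Where H3K4me3 was longest, the 2 marks did not move in one way. FOXD1 had 2941, 3025 and 3039 bases of H3K4me3 peaks in V16D/CTL against 3998, 3754 and 3301 in V16D/H19, beside its shorter H3K27me3. MEIS2, a homeobox cofactor, had 2304, 2346 and 2129 bases and 2854, 2558 and 2281 bases of H3K4me3, with overlap. Its H3K27me3 peaks measured 18.1 to 20.1 kb in V16D/CTL and 16.7 to 17.1 kb in V16D/H19. A domain inside ADGRL2, an adhesion receptor gene of synapses, had less H3K4me3 in V16D/H19. It went from 3160, 3341 and 3213 bases to 2546, 2184 and 2268, with overlapping H3K27me3. GATA3, named for its fold rank and not for its H3K4me3 length, had 1578, 1786 and 1727 bases in V16D/CTL against 885, 958 and 1140 in V16D/H19. The domains at TCHH and inside SOX6, with 2224 to 3169 and 2674 to 3966 bases, overlapped.

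Wide domains were unevenly spread over the chromosomes and often lay side by side. Chromosome 1 held 82, chromosome 3 held 68 and chromosome 20 held 63, while chromosomes 21 and X held 4 each. Of the regions with a peak in all 6 lists, 11.0% were wide on chromosome 20 and 9.78% on chromosome 17, against 3.54% on X and 3.32% on chromosome 16. For 187 domains the nearest other domain was within 10 kb and for 326 within 50 kb. There were 43 runs of 3 or more domains less than 50 kb apart, which held 184 domains.

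The longest run had 10 domains within 251 kb at RBFOX3, which encodes the neuronal splicing factor NeuN. Its peaks summed to 153, 173 and 168 kb in V16D/CTL and 128, 137 and 142 kb in V16D/H19. A run of 9 lay in CDH4, a cadherin gene, with 115, 122 and 128 kb against 98.4, 110 and 110 kb. At PRDM16 a run of 9 from the gene ACTRT2 to its start was followed by a run of 8 inside the gene, the latter with 106, 114 and 124 kb against 86.2, 86.3 and 87.9 kb. In these 3 genes the groups did not overlap in the runs named. A run of 6 at PRICKLE1, a planar polarity gene, had 53.4, 67.0 and 70.9 kb against 58.8, 62.6 and 62.7 kb, with overlap. Neighbouring domains share their chromatin, so the counts above are not of independent sites.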

How the data were processed

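V16D/CTL and V16D/H19 libraries (3 per group and mark, from the sample titles) were compared. The authors called peaks in each library against the input of its replicate with MACS2 (broad for H3K27me3, narrow for H3K4me3) on hg38, per the labels. The deposited lists give, per peak, a ratio (fold over input) and a −log10 q-value. The authors' own differential tables (DiffBind, annotated with ChIPseeker) hold log2 folds with p-values and were not used. Members and gene lists were chosen with earlier results of these data known.

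Peaks on chromosomes 1 to 22 and X were merged. Per region and library, peak lengths were summed and ranks averaged by length. Log2 length and normal scores of ranks were fitted with limma 3.58.1 (trended variance, R 4.3.3, no block) over all regions in all 6 lists, with Benjamini-Hochberg adjustment (0.05). The code was tested on simulated data. Ranks compare peaks within a list only. The replicates are biological. Gene starts were 5′ ends of RefSeq genes (GRCh38.p14, strand for 19630 of 19974 protein-coding genes, from the RefSeq promoter table or GENCODE by symbol). Without read depth, which was not used here, counting error is unknown.

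Domains were named by rule: the 10 widest, 8 called with the largest differences per direction (5 without overlap where none was called), 5 each by fold rank, gene starts and H3K4me3, 3 on each side of the limit, and genes of the lists. Alternatives were stricter, equal-length or gap-tolerant lists, other widths, centring, a logit scale, other ranks, a replicate block and leaving out each library. Some genes of the lists are not reported here by name.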

Additional observations from a re-analysis of the deposited data

How the results depend on the processing

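The number of wide domains was 3353 at a width of 5000 bases, 69 at 20000 bases, 385 where each list had to cover 50% of the width, 443 with peaks of a −log10 q of at least 2 and 2851 with peaks up to 1000 bases apart merged. With equal-length lists it was 660, and without 1 library 489 to 605. The share of domains called shorter in V16D/H19 (2.01%) became 3.18% with equal-length lists, 0.287% after centring on each library's median (1 domain called longer), 0% on the logit scale of the covered share, and 0% to 1.44% without 1 library. The sample titles do not say whether same-numbered libraries were linked. Their deviations from the group means correlated by 0.11, 0.05 and 0.03 in the domains, with the third V16D/CTL library closest to another number. For H3K4me3 the same-numbered correlations were 0.0191, 0.0263 and 0.0315, and those of other pairs lay from -0.0271 to 0.000478. A link between same-numbered libraries was therefore left undecided. The replicate block gave 9.77% (68 shorter and 2 longer, with all 14 among them). Chosen after seeing the data, the share of domains shorter without overlap (34.6%) was 9.34% after centring, 34.8% with equal-length lists, 41.8% with stricter peaks, 24.9% with gaps merged and 37.9% to 55.5% without 1 library, the highest without the first V16D/CTL library. It was 46.6% with the width limit set on the merged V16D/CTL peaks alone and 23.7% on the V16D/H19 peaks alone. The H3K27me3 fold and q rank tests called 0 domains in either direction under the stricter, equal-length and gap-merged lists, the highest-peak rank, the replicate block and without 1 library, the fold test also on log2 fold. The H3K4me3 test called 0 regions under the block, on log2 fold and without 1 library, and other lists were not run for it.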
